A study of Mus musculus with 32 samples.

Results

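The 10 genes described here serve meiosis and the germ line: Sycp1, Sycp3, Rec8, Piwil1, Dmc1, Hormad1, Mael, Tex101, Ddx4 and Dazl. They were named by symbol, out of 16593 genes with a named probe, and each was represented by its probe with the highest mean signal over all 32 arrays. Male NIH Swiss mice aged 7 weeks were injected once into a vein with CBL0137 (30, 60 or 90 mg/kg) or with its dextrose vehicle, and testis, spleen, liver and lung were taken 24 h later. CBL0137 is a curaxin, a small molecule that binds DNA and traps the histone chaperone FACT on chromatin. Whole-organ RNA was hybridised to Illumina BeadChips, 2 arrays for each of 16 groups of 1 organ and 1 dose, and no genotype or second agent was named in the labels. The labels number the samples of a group without saying whether they came from separate mice, so the p-values below measure the spread between those samples, which may be technical.

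In the testis, spermatogonia give rise to spermatocytes, which pair and recombine their chromosomes in meiosis and then form spermatids. SYCP1 and SYCP3 build the synaptonemal complex that joins paired chromosomes, REC8 is the meiotic kleisin of the cohesin ring, HORMAD1 marks chromosome axes that have not yet paired, and DMC1 is the meiosis-specific recombinase. PIWIL1 (MIWI) is a Piwi protein that binds piRNAs in pachytene spermatocytes and round spermatids, and MAEL and the helicase DDX4 (mouse vasa homologue) act in the same small RNA pathway that silences transposons. DAZL binds germ cell mRNAs and is needed for germ cells to enter meiosis, and TEX101 is a surface glycoprotein of male germ cells that acts in sperm fertility. Most of these genes are silenced outside the germ line, in part by the repressor complex PRC1.6, which holds MGA and MAX, partners at the E-box CACGTG, and E2F6.

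The promoters are shown because silencing of this gene class acts there, and because 6 of the 10 carry the same E-box. All 10 genes matched RefSeq windows (build GRCm38.p6) of 300 bases, from 250 before the annotated start to 50 after it, and Hormad1 has 2 windows with starts 2 bases apart. For Rec8, Piwil1, Dmc1 and Ddx4 the start used lies inside the annotated span of the gene, not at its outer end. The Ddx4 E-box and the Piwil1 E-box 154 bases before the start therefore lie within the span. The search covered both strands and 4 motifs, namely the E-box CACGTG, the E2F6-type site written GCGGGAA, the core of MYB family sites written CAACTG, and CNCCTCAG, reported for STRA8, the switch into meiosis. None of the 4 overlapped another in these windows. CACGTG was found in Sycp1, Sycp3, Piwil1, Hormad1, Mael and Ddx4, 6 of 10 genes, while 7.15% of 32851 windows held it and 11.3% of the 11378 windows with at least 15 CpG did. GCGGGAA was found in Sycp3, Hormad1 and Ddx4, against 4.6% of all windows and 10.3% of the CpG-rich ones. CNCCTCAG was found in Sycp1 and Dazl (7.94% of all windows) and CAACTG in Piwil1 alone (13.7%). The members' windows held 15 to 38 CpG each, above the median of 7 over all windows. A match describes letters in a window and not a bound site. Below, capitals mark CACGTG and, in Sycp3 and Hormad1, GCGGGAA. Sequences run 5′ to 3′ along the gene, first the whole 250 bases before the start for Sycp3 and Hormad1, which each held a pair of E-boxes and GCGGGAA, and for Dazl, which held none of the 4 motifs in that stretch, and then 30 bases around each E-box of Piwil1, Ddx4, Sycp1 and Mael.
Sycp3, chr10:88459337-88459586, plus strand: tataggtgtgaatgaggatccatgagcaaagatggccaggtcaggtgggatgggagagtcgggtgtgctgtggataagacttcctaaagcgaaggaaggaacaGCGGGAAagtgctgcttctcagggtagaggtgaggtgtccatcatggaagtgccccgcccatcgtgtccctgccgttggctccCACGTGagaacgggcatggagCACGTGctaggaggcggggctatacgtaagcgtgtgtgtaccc
Hormad1, chr3:95559427-95559676, plus strand: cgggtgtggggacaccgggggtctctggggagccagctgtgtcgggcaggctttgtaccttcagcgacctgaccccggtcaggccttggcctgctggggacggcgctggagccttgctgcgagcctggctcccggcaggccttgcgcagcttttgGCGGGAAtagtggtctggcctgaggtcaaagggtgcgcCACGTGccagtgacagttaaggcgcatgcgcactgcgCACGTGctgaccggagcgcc
Dazl, chr17:50293621-50293870, minus strand: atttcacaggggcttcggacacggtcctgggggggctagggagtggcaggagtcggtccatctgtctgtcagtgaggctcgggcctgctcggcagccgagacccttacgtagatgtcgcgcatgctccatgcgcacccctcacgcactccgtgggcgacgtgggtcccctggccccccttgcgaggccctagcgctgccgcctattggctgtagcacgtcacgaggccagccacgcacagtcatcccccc
Piwil1 E-box 179 bases before the start, chr5:128736055-128736084, plus strand: aaaaccgccaccCACGTGgcagccaatcag
Piwil1 E-box 154 bases before the start, chr5:128736080-128736109, plus strand: atcagggcccagCACGTGtccacctcgccg
Ddx4 E-box 29 bases before the start, chr13:112652322-112652351, minus strand: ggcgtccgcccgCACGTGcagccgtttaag
Sycp1 E-box 94 bases before the start, chr3:102936177-102936206, minus strand: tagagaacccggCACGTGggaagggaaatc
Mael E-box 223 bases before the start, chr1:166238950-166238979, minus strand: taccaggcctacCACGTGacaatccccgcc

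The array measured 6 of the 10 genes. Piwil1, Dazl, Rec8, Tex101, Ddx4 and Sycp1 were above background on 8 of 8 testis arrays, where a probe counted as above background if its signal, in the arbitrary units of the deposited intensities, passed 1.645 times the noise SD of its array (7.82 to 7.91). Sycp3, Dmc1, Hormad1 and Mael were not well above background on any testis array, the highest of their 32 testis signals being 6.1, for Mael on a CBL0137 array. These 4 genes are known to be transcribed in spermatocytes, so their probes did not show the tissue on the label, whereas the other 6 genes and 24 of 25 spermatid markers were above background on every testis array. On the 3 testis arrays whose signal before normalization could be assigned by name, the same 4 probes read 100.3 to 119.4, lay between the 0.07 and the 19.2 percentile of all probes, and fell below the array medians of 134.1 to 144.6. Piwil1 lay at the 98.4 to 98.9 percentile there. Ddx4 had 3 probes: the brightest was used, a second was above background on 2 of 8 testis arrays (43.7 in 1 array at 90 mg/kg and 44.1 in 1 vehicle array), and the third on none. The other 9 genes had a single probe each.

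Libraries of vehicle-treated spleen and lung stood apart before any test. A set of 68 other probes that were bright in testis (a vehicle mean of at least 1000) and above background on no liver array showed, as a median share of their vehicle testis signal, 0.0913% to 1.15% in the 6 CBL0137 spleens, against 2.79% and 5.68% in the 2 vehicle spleens. In lung the share was 0.0445% to 0.151% with CBL0137, against 0.728% and 1.02% with vehicle. It was -0.122% to -0.0201% in CBL0137 livers and within 0.0181% of 0 in both vehicle livers, which define the zero of this measure. The probes were chosen for being above background on no liver array, so shares near 0 in all livers were built into that choice. The correlation over all probes between the replicate arrays was r = 0.958 to 0.993, whatever the group. In whole organs, fewer cells of a type and less RNA per cell cannot be told apart. Whether testis RNA entered the vehicle spleen and lung samples was not tested, so lower values with CBL0137 there are not assigned to the drug.

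In vehicle-treated mice the 6 genes above background in testis were brighter there than in the other organs, which for Sycp1, above background on 1 of the 24 arrays of other organs, partly restates how they were chosen. Against the mean of the other organs' vehicle arrays, the log2 difference of (signal + 16), the scale of every log2 value below, was 5.60 ± 0.25 for Piwil1, 4.81 ± 0.29 for Dazl, 4.35 ± 0.21 for Tex101, 4.19 ± 0.21 for Rec8, 4.00 ± 0.26 for Ddx4 and 1.62 ± 0.18 for Sycp1 (± SE, 2 testis arrays against 6 others). Adjusted p-values of limma, Benjamini-Hochberg over all genes tested, ran from 8.6e-15 for Piwil1 to 3.3e-08 for Sycp1. All 6 tested members were called higher in testis at an adjusted p under 0.05, a call that 26.6% of the 14403 genes in this fit also received. Piwil1 was 21.6-fold brighter in testis than in spleen, 70.2-fold than in liver and 75.2-fold than in lung, on the offset scale. Tex101 was not well above background in lung and was, without the offset, at least 54.6-fold brighter in testis. Sycp1 was not well above background in spleen or lung and, without the offset, at least 4.94-fold brighter in testis. On the offset scale it was 2.59-fold brighter in testis than in liver, where 1 of 2 vehicle arrays was above background. Folds with and without the offset cannot be compared. The margin over spleen was smaller than that over lung for the 4 genes with a measured fold in both, Piwil1, Dazl (19.7 against 32.8), Rec8 (14.5 against 19.9) and Ddx4 (13.2 against 17.9), with no test of the difference between those margins.

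None of the 6 measurable genes passed the test between CBL0137 and vehicle testis. At 30, 60 and 90 mg/kg, 0 of 6 were called, beside 0%, 0% and 0.00924% of the 10821 genes tested (the 1 gene called at 90 mg/kg was Thap4). At an unadjusted p under 0.05 the members numbered 0, 0 and 1, where 4.5%, 9.03% and 7.56% of all genes passed. The single pass was Dazl at 90 mg/kg.

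Piwil1, the brightest member, read 4438 and 3276 with vehicle, 3355 and 2894 at 30 mg/kg, 3646 and 3262 at 60 mg/kg, and 3583 and 3026.5 at 90 mg/kg. The vehicle arrays differed more than any dose pair, and 3 of the 6 CBL0137 arrays fell between them. Its log2 change was -0.29, -0.14 and -0.21 at the 3 doses, with a confidence interval at 90 mg/kg of -0.64 to 0.22 (level 95%). Dazl read 734.1 and 684.5 with vehicle, 541.7 and 586.8 at 30 mg/kg, 584.0 and 572.7 at 60 mg/kg, and 479.5 and 537.8 at 90 mg/kg. All 6 CBL0137 arrays lay below both vehicle arrays, which 5.79% of the genes tested in testis also showed. The log2 change of Dazl was -0.47 ± 0.14 at 90 mg/kg (interval -0.80 to -0.14, unadjusted p = 0.0102, adjusted p = 0.647 by limma, 2 arrays a group). Its slope per 30 mg/kg was -0.14 ± 0.04 (adjusted p = 0.448 by limma), and 0 of 6 members were called for a slope, beside 0% of all genes.

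Rec8 read 617.5 and 628.2 with vehicle, 584.7 and 506.4 at 30 mg/kg, 522.4 and 509.7 at 60 mg/kg, and 591.5 and 661.6 at 90 mg/kg. The 4 arrays at 30 and 60 mg/kg lay below both vehicle arrays, while at 90 mg/kg the pair lay on either side of them, with a log2 change of 0.01 ± 0.15. Ddx4 read 312.6 and 581.6 with vehicle, 547.7 and 520.4 at 30 mg/kg, 415.4 and 497.0 at 60 mg/kg, and 468.5 and 438.8 at 90 mg/kg. All 6 CBL0137 values of Ddx4 fell inside the gap between its vehicle arrays, whose width sets the widest interval of the 6 genes at 90 mg/kg, -0.49 to 0.66. Tex101 stayed between 430.7 and 479.8 on the CBL0137 arrays, inside its vehicle values of 377.5 and 492.6. Sycp1 was dim, at 25.4 to 39.6 with CBL0137 against 39.6 and 38.5 with vehicle, and 5 of the 6 CBL0137 arrays read lower than both vehicle arrays. The log2 changes of the 6 genes ran from -0.47 to 0.08 at 90 mg/kg, with a median of -0.10 beside -0.01 over all genes tested, and the limits of their intervals from -0.80 to 0.66.

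**Figure D1:**
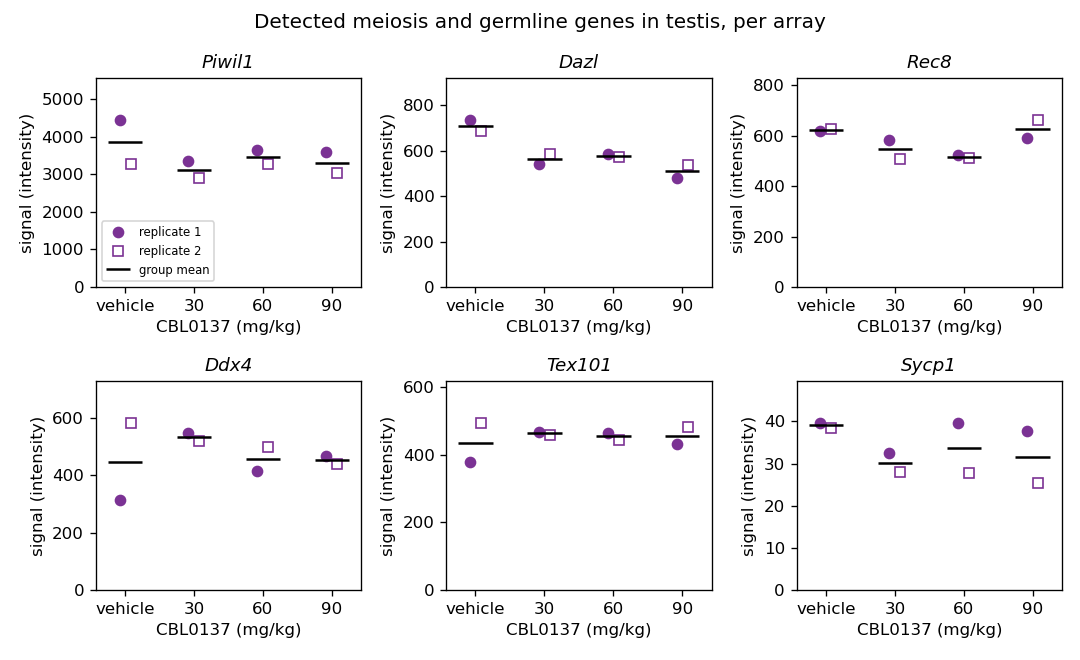
Signal (intensity, arbitrary units, linear axis from 0) of the 6 detected genes on each testis array, by dose of CBL0137; filled circles are replicate 1, open squares replicate 2 and bars the group mean of 2 arrays. Dazl at 479.5 to 586.8 on the CBL0137 arrays lies below both vehicle arrays (734.1 and 684.5), and the CBL0137 values of Ddx4 and Tex101 lie between their vehicle values.

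Other genes of meiosis and of the germ line, in lists chosen with these data already known, gave the same count in testis. At 90 mg/kg 0 genes were called in any list, with 3 synaptonemal complex and axis genes, 3 meiotic cohesin genes, 10 meiotic recombination genes, 13 piRNA pathway genes and 6 germ cell and meiotic entry regulators tested, members included. Their median log2 changes were -0.14, -0.12, 0.03, -0.01 and -0.12, in that order, beside -0.01 over all genes. The genes with the smallest unadjusted p in their lists were Asz1, a mitochondrial membrane protein of the piRNA pathway (-0.49, unadjusted p = 0.00768), Smc1b, the meiotic SMC subunit of cohesin (-0.44, unadjusted p = 0.0267), and Spo11, which makes the DNA breaks that start recombination (-0.37, unadjusted p = 0.0494), with limma adjusted p-values of 0.647 to 0.649 at 2 arrays a group. Hormad2, the partner of Hormad1 on chromosome axes, had 0.26 and Dppa4, a germ and stem cell chromatin protein, -0.32. Among stage markers, 8 genes of spermatogonia, 10 of pachytene spermatocytes (Piwil1 and Tex101 among them) and 24 of spermatids were tested, with 0 called and medians of 0.08, -0.01 and 0.02. Ccna1, the cyclin of male meiosis, had 0.47 (unadjusted p = 0.0178), Cdc25c -0.41, the sperm calcium channel gene Catsper1 -0.39 and the stem cell regulator Id4 -0.34. Among somatic markers 0 of 14 Sertoli, 6 Leydig, 5 peritubular and smooth muscle, 5 macrophage, 2 lymphocyte and 6 erythroid genes were called, with Gata1 at 0.41, Star at -0.42, Mylk at 0.31, C1qa at 0.40, Cd4 at 0.21 and Alas2 at 0.46. The spermatid markers summed to 222330 to 236990 on the CBL0137 testis arrays, against 226980 and 230990 with vehicle, and 24 of 25 were above background on each array. Markers of liver summed higher on the CBL0137 testis arrays, on some by little: the 8 hepatocyte genes summed to 143.2 to 1579, against 84 and 130.5 with vehicle. The highest sum was an array at 30 mg/kg. The other array at 30 mg/kg read 146.1 and an array at 60 mg/kg 143.2, near the vehicle values. The 8 lung epithelium genes summed to 39 to 1058 with CBL0137, against 28.7 and 58.9 with vehicle. None of the 5 tested genes of either list was called (Apoa2 1.20, Sftpc 1.41 at 90 mg/kg), and their part in the testis values was not tested.

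In spleen 5 of the 10 genes (Piwil1, Rec8, Dazl, Ddx4 and Tex101) gave a trace signal. Piwil1 read lower in the CBL0137 spleens than in the vehicle spleens at all 3 doses. The other testis-bright probes were lower too, with a median share of at most 1.15%, against 2.79% and 5.68% with vehicle. Whether testis RNA in the vehicle spleens gave these differences was not tested. Sycp1, Sycp3, Dmc1, Hormad1 and Mael were above background on 0 of 8 spleen arrays. Piwil1 read 113.5 and 227.1 in vehicle spleens, 29.4 and 27.5 at 30 mg/kg, 43.9 and 30.1 at 60 mg/kg, and 46.1 and 27.9 at 90 mg/kg. Every CBL0137 array lay below both vehicle arrays, and all 8 were above background. The log2 change was -2.00 ± 0.32 at 30 mg/kg, -1.76 ± 0.32 at 60 mg/kg and -1.76 ± 0.32 at 90 mg/kg, with limma adjusted p = 0.0360, 0.0460 and 0.0361 (2 arrays a group). Rec8 read 24.4 and 32.2 in vehicle spleens, 3.5 and 3.8 at 30 mg/kg, 4.9 and 5.7 at 60 mg/kg, and 8.5 and 2.2 at 90 mg/kg. Only 1 of the 6 CBL0137 arrays was above background, so Rec8 was at least 3.55-fold lower at 30 and at 60 mg/kg. Its fitted log2 changes, with the offset and so smaller for dim signals, were -1.17, -1.05 and -1.06, each ± 0.20. Rec8 passed the filter on dim genes (2 of 8 arrays above background) only with its vehicle arrays, so a lower value with CBL0137 was built into that choice, and its limma adjusted p of 0.0360, 0.0497 and 0.0398 (2 arrays a group) is given as a description. With no filter it was 0.184, 0.108 and 0.0762 by limma.

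Of the 11101 genes tested in spleen 2.97%, 1.15% and 2.18% were called lower at 30, 60 and 90 mg/kg, and of the 4 members tested whose CBL0137 arrays alone met the filter, 1 was called, Piwil1. With the replicate block its limma adjusted p was 0.0785, 0.0902 and 0.0685 at the 3 doses, and with no filter on dim genes 0.184, 0.129 and 0.0974, so that the call was lost at every dose under either setting. Dazl read 3.7 and 8.2 at 30 mg/kg, 9.9 and 7.4 at 60 mg/kg, and 6.5 and -0.2 at 90 mg/kg, against 17.1 and 24.9 with vehicle. Dazl did not pass the test at any dose, with -0.96 ± 0.23 at 90 mg/kg (limma adjusted p = 0.0561, 2 arrays a group). At that dose Dazl was not well above background and, without the offset, at least 2.61-fold lower. For Piwil1, Rec8 and Dazl all 6 CBL0137 arrays were below both vehicle arrays, a pattern of 9.22% of the genes tested in spleen. Ddx4 read 4.0 to 16.9 with CBL0137 against 12.6 and 23.3 with vehicle, and Tex101 -3.0 to 18.2 against 3.7 and 13.6, with groups that overlapped and 0 calls. With 1 array of a contrast left out, which leaves that group a single array, the log2 change of Piwil1 was -2.45 to -1.54 at 30 mg/kg, -2.21 to -1.30 at 60 mg/kg and -2.22 to -1.31 at 90 mg/kg, and the call was kept only at 30 mg/kg without vehicle replicate 1. The log2 change of Rec8 was -1.29 to -0.85 over the 3 doses in the same fits. For the slope per 30 mg/kg, 0 of 5 members were called in spleen, beside 5.11% of all genes.

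**Figure D2:**
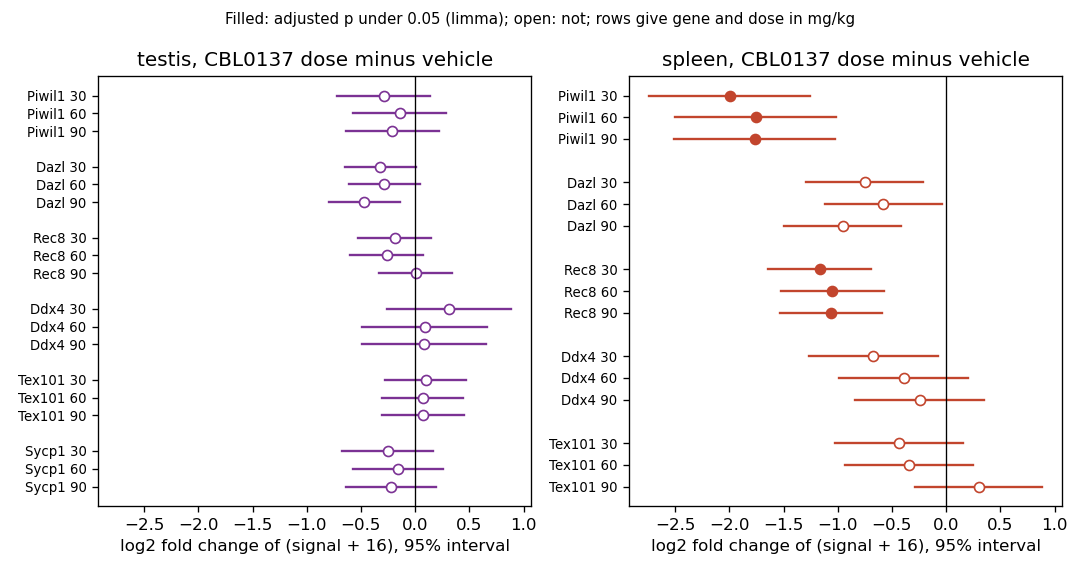
Log2 change of (signal + 16), CBL0137 dose minus vehicle, with its confidence interval, for the genes tested in testis (left) and in spleen (right); filled points passed an adjusted p of 0.05. Testis intervals lie around 0 apart from Dazl at 90 mg/kg (-0.80 to -0.14, not called), and the filled spleen points are Piwil1 and Rec8 at 30, 60 and 90 mg/kg. Rec8 met the filter on dim genes only with its vehicle arrays, so its filled points are a description.

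Markers of haploid and pachytene germ cells were lower in the same spleens, and their part in the values of Piwil1 and Rec8 was not tested. The 25 spermatid markers summed to 718.8 to 9707 in the CBL0137 spleens, against 20499 and 40262 in the vehicle spleens, with 15 to 23 above background against 24 in each. The 13 pachytene markers, Piwil1 and Tex101 included, summed to 384.9 to 2908 in the CBL0137 spleens, against 7446 and 12825 with vehicle. Lower calls numbered 18 of 24 spermatid genes at 30 mg/kg, 3 at 60 mg/kg and 7 at 90 mg/kg, with median log2 changes of -3.34, -2.50 and -2.38, beside 0.07, 0.09 and 0.08 over all genes. Piwil1 and Tex101 belong to the pachytene list; its 7 other tested genes had medians of -3.67, -2.59 and -2.31, with 4, 0 and 1 called lower. Genes of the spermatid and pachytene lists called at 90 mg/kg included the acrosomal genes Acr (-1.61) and Acrv1 (-2.77), the meiotic heat shock gene Hspa2 (-2.26) and Catsper1 (-1.28). Among the meiotic lists, 1 of 2 cohesin genes other than Rec8 was called lower at each dose, at 90 mg/kg Stag3, the meiotic stromal antigen subunit (-1.65 ± 0.35). Of 8 recombination genes 1 was called lower at each dose, at 90 mg/kg Psmc3ip (-1.90 ± 0.34), which assists DMC1. Of 8 piRNA pathway genes other than members, 2, 0 and 0 were called lower at 30, 60 and 90 mg/kg, and of 10 Sertoli cell genes 2, 0 and 0. No synaptonemal complex gene was bright enough to be tested, and 0 of 4 germ cell and meiotic entry regulators were called at any dose. Spleen cells changed as well: 3 of 6 erythroid markers were called lower and 4 of 6 macrophage markers higher at 90 mg/kg, among them Klf1 at -4.12 and C1qb at 1.29. Of all 11101 genes tested, 242 were called lower and 232 higher at that dose.

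As a share of the vehicle testis signal above liver, the vehicle spleens held 1.94% and 4.92% for Piwil1, 1.61% and 2.89% for Rec8, 1.63% and 2.74% for Dazl and 0.674% and 3.12% for Ddx4. Each of these 4 genes was lower in vehicle replicate 1 and higher in replicate 2, as were the 68 other testis-bright probes (2.79% and 5.68%), and each gene's share lay below the median of those probes on both arrays. Tex101 held -0.232% and 2.07%, and Sycp1, not above background in spleen, -21.2% and -27.3%. In the CBL0137 spleens Piwil1 lay between -0.310% and 0.177%, around the level of liver. Among the CBL0137 spleens alone, a comparison added after the data were seen, 0 of 4 tested members differed at 60 or 90 mg/kg from 30 mg/kg. Piwil1 was 0.24 and 0.23 higher there on the log2 scale and within its error of 0.24, and Tex101 0.74 ± 0.22 higher at 90 mg/kg (unadjusted p = 0.0130, limma adjusted p = 0.245, 2 arrays a group).

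**Figure D3:**
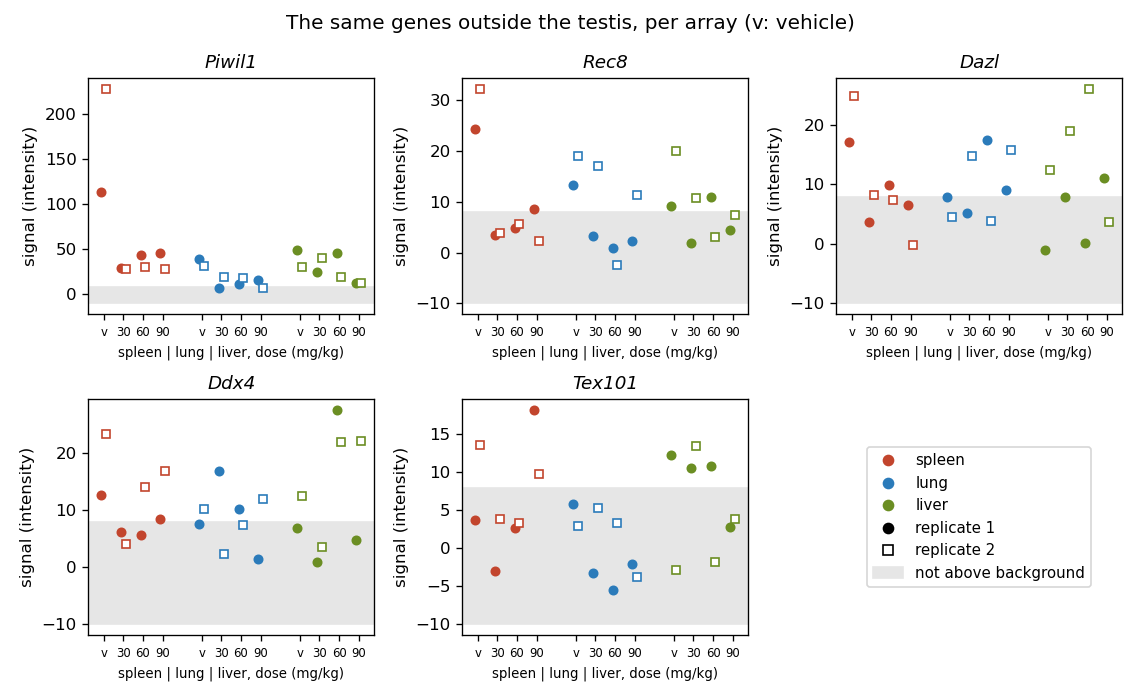
Signal (intensity, arbitrary units, linear axis) of 5 genes on each array of spleen, lung and liver, by dose in mg/kg with vehicle as v; grey marks values not above background. The vehicle spleens stand above every CBL0137 spleen for Piwil1 (113.5 and 227.1 against at most 46.1), Rec8 and Dazl.

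The change of Piwil1 differed between the organs at 30 mg/kg. Its spleen change minus its testis change was -1.71 ± 0.43 in a fit over all 32 arrays (limma adjusted p = 0.0318, 2 arrays a group), and it was the only one of 6 genes called, beside 2.46% of 14403 genes called in that direction. That call remained without vehicle spleen replicate 1 and was lost when any other array of the contrast was left out. At 60 and 90 mg/kg the difference was -1.61 and -1.55, each ± 0.43, and missed the threshold (limma adjusted p = 0.0559 and 0.0567, 2 arrays a group), while 1.56% and 1.67% of all genes were called in that direction. For Rec8 it was -0.98, -0.79 and -1.07, with adjusted p-values of 0.323, 0.379 and 0.125 from the same limma fit. That fit treated all 32 arrays as independent, and possible sharing of mice between organs was not modelled. Of the 6 genes, Sycp1 was above background on 0 of 8 spleen arrays, so its difference mainly describes its testis change.

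In lung the trace was fainter. The 68 other testis-bright probes held 0.728% and 1.02% of their vehicle testis signal in the vehicle lungs. The share of Piwil1 was -0.224% and 0.00131% there, around the level of vehicle liver. Piwil1 read 6.5 and 19.4 at 30 mg/kg, 11.7 and 17.9 at 60 mg/kg, and 15.5 and 7.1 at 90 mg/kg, against 39.4 and 30.8 with vehicle. All 6 CBL0137 lungs were below both vehicle lungs, as for 6.16% of the genes tested in lung, and 2 of the 6 were not above background. The log2 change was -0.85, -0.73 and -0.92, each ± 0.28, with unadjusted p-values of 0.0167, 0.0317 and 0.0118 and limma adjusted p-values of 0.607, 0.496 and 0.267 (2 arrays a group). Rec8 at 60 mg/kg was not well above background and, without the offset, at least 2.03-fold lower than with vehicle (0.9 and -2.5 against 13.4 and 19.1, limma adjusted p = 0.380). Dazl went the other way, with log2 changes of 0.20, 0.22 and 0.35 at 30, 60 and 90 mg/kg, each ± 0.31. None of the 4 tested members was called in lung at any dose, nor was any gene of the table (0% of 11372), and 1, 2 and 1 members passed an unadjusted p under 0.05 at 30, 60 and 90 mg/kg, as did 5.9%, 8.92% and 11.5% of all genes. The spermatid markers summed to 223.2 to 1764 in the CBL0137 lungs, against 5504 and 8423 in the vehicle lungs, and their part in the Piwil1 values was not tested. The 8 hepatocyte genes summed to 659.9 to 23493 in the CBL0137 lungs, against 2787 and 19964 with vehicle. Their part in the lung values was not tested either.

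Liver set the zero of the share measure but still showed germ cell marker signal. The 25 spermatid markers summed to 448.4 to 2318 in the CBL0137 livers, against 1680 and 2076 in the vehicle livers. Of these markers 11 to 19 were above background with CBL0137, against 15 and 17 with vehicle. Piwil1 was above background on 8 of 8 liver arrays, at 12.3 to 45.7 with CBL0137 against 30.0 and 48.7 with vehicle. At 90 mg/kg its arrays read 12.7 and 12.3, with a log2 change of -0.94 ± 0.32 (unadjusted p = 0.0190, limma adjusted p = 0.339, 2 arrays a group). Of 5 members tested in liver 0 were called at any dose, beside 0% of 11586 genes, and that Piwil1 value was the 1 unadjusted p under 0.05, which 4.9%, 7.01% and 11.1% of all genes had at 30, 60 and 90 mg/kg. Ddx4 and Dazl reached 27.5 and 26 on single CBL0137 livers, above their highest vehicle spleen signals of 23.3 and 24.9.

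**Figure D4:**
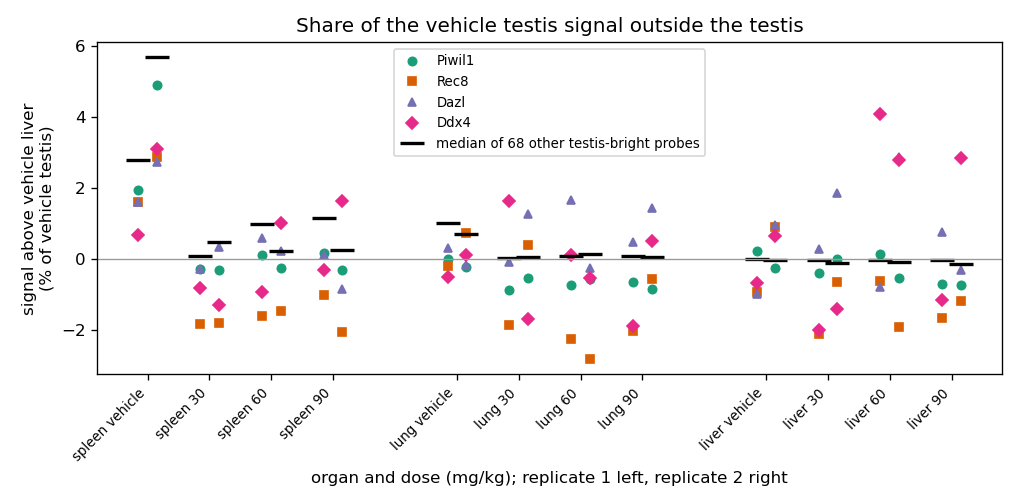
Signal above the vehicle liver mean as a percent of the vehicle testis signal, for Piwil1, Rec8, Dazl and Ddx4 on each array outside the testis (replicate 1 left, replicate 2 right), with bars for the median of 68 other testis-bright probes. The bars reach 2.79% and 5.68% in the vehicle spleens and 1.15% at most in the CBL0137 spleens; single genes scatter by a few percent around 0 elsewhere.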

How the data were processed

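Testis, spleen, liver and lung RNA of CBL0137-treated and vehicle-treated mice was extracted with TRIzol, amplified to biotinylated cRNA and hybridised to Illumina BeadChips, per the labels' protocols. Per the submitters' processing notes the authors exported the deposited intensity values from GenomeStudio (version not given in the sources used here). These values show background subtraction and quantile normalization over all arrays: sorted values of the 32 arrays differed by at most 1.0, 22.0% to 22.5% were below 0 and the highest was 24070.3. Normalizing 4 organs together can shift an organ's dim genes. The authors' other deposited table, with intensities before normalization, gave 3 columns that could be assigned by name, used as a check, and 61 per-sample columns were not used.

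Of 25697 probes 23978 had 1 symbol in GEO's platform annotation, 0 several and 1719 none, and 23962 were matched to RefSeq by identifier. Each of 16593 genes was represented by its probe of highest mean signal (4777 had several). Intensities were floored at 0, raised by 16 and log2-transformed. A probe was above background past 1.645 times its array's noise SD, estimated from the values below 0, which 55.4% to 56.0% of probes were, and genes entered an organ's test when at least 2 of 8 arrays passed. The number of arrays limits the precision. Where a group had no array above background, a fold of at least N sets that group at the lowest signal above background, and the brighter group enters by its measured mean. Such folds use signals without the offset of 16, so they can exceed fitted changes and measured folds, which include it.

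Each organ's 8 arrays were fitted by dose, and by a slope per 30 mg/kg, with limma 3.58.1 in R 4.3.3 (lmFit, eBayes). Vehicle testis against the other organs, and the spleen change minus the testis change, used all 32 arrays. P-values were adjusted over all genes tested (Benjamini-Hochberg, threshold 0.05). The code was tested on simulated data. Values, promoter counts and plots used Python 3.11.15, pandas 2.3.3 and matplotlib 3.10.9, and promoter sequences are RefSeq's, build GRCm38.p6. The members and lists were chosen with earlier results of these data known. Genes named were all members, per marker list up to 3 called genes or otherwise the 2 smallest p at 90 mg/kg in testis, and the 5 genes most like the members in testis and in spleen. Genes named from the spleen lists and Thap4 were chosen after their values were seen. Replicate numbers were treated as not pairing the samples. Differences between replicates 1 and 2 correlated across dose groups at -0.169 to 0.163 in testis and -0.232 to 0.404 in spleen. That check cannot exclude a shared replicate effect, and it was not made between organs. Alternatives were another offset, no filter, the mean of all probes, a replicate block, cyclic loess within the organ, 1 fit over all arrays, each array left out, and the testis share subtracted from spleen.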

Additional observations from a re-analysis of the deposited data

Results flagged for a closer look

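The spleen change of Piwil1 at 30 mg/kg minus its testis change was -1.71 ± 0.43 on the log2 scale (limma adjusted p = 0.0318, 2 arrays a group), a difference between organs that passed its own test. The CBL0137 spleens read 29.4 and 27.5, against 113.5 and 227.1 with vehicle, and the CBL0137 testes 3355 and 2894, against 4438 and 3276 with vehicle. Whether testis RNA in the vehicle spleens gave the spleen difference was not tested. The call was lost without vehicle spleen replicate 2, without either spleen array at 30 mg/kg, and without any one of the 4 testis arrays involved.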

How the results depend on the processing

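In testis 0 of 6 members were called at any dose under any of 10 alternatives, or for the slope under any of 14, and all 6 were called higher than in other organs under each of 12. Sycp1 met the filter on dim genes only with its testis arrays, so its higher call was partly built into that choice. The 2 spleen calls (Piwil1 and Rec8) did not hold under all alternatives. Rec8 met the filter on dim genes only with its vehicle arrays, so its part in the counts below is a description. With an offset of 50 in place of 16, 1 member was called at 30 and at 60 mg/kg, and 2 at 90 mg/kg. With no filter on dim genes, with the replicate block or with the testis share subtracted, 0 were called at 30, 60 or 90 mg/kg. The block also called 0, 43 and 49 genes in all, against 347, 211 and 474 without it, and it changed no testis call of a member. With no filter the counts over all genes were 0, 9 and 38, and with the testis share subtracted 34, 105 and 339; an offset of 50 called 641 at 60 mg/kg and 925 at 90 mg/kg. One fit over all arrays called more genes (609, 1178 and 1444 in spleen, 4, 31 and 201 in lung, 58, 99 and 344 in liver, by rising dose) and 1375 for the spleen slope, which had 567, and 318 with the block. In liver an offset of 50 called 3 and 63 genes at 60 and 90 mg/kg and the mean of all probes 3 at 90 mg/kg, against 0; in testis 0 to 2 were called at 90 mg/kg, and 2 for the slope in 1 fit over all arrays. For the difference between organs an offset of 50 called 551 and 722 genes at 60 and 90 mg/kg, against 260 and 353. Leaving out 1 array gave 0 to 1 members at 30 mg/kg (Piwil1 without vehicle replicate 1), 0 at 60 mg/kg and 0 to 1 at 90 mg/kg (Rec8 without replicate 1 of that dose), and 0 to 254, 2 to 179 and 22 to 227 genes in all. With the 30 mg/kg arrays in place of vehicle, added after the data were seen, 0 members and 24 and 26 genes in all were called at 60 and 90 mg/kg. The spleen slope had 1 call (Piwil1) in 1 fit over all arrays, against 0. The difference between spleen and testis had 1 call (Piwil1) at 60 and at 90 mg/kg with an offset of 50, against 0, and 0 to 1 at 30, 60 and 90 mg/kg when 1 array was left out. With the testis share subtracted the spleen change was 0 or above for Piwil1 (0.48, 0.32 and 0.10 at 30, 60 and 90 mg/kg, slope 0.0146), Dazl (0.31, 0.34 and 0.00, slope 0.0031), Ddx4 (0.29, 0.48 and 0.62) and Tex101 (0.07, 0.10 and 0.75) and stayed negative for Rec8 (-0.11, -0.09 and -0.18); the subtraction removes most from the vehicle arrays, so it moves these changes upwards by construction. Against 30 mg/kg the change was 0.24 and 0.23 for Piwil1 at 60 and 90 mg/kg, 0.17 and -0.20 for Dazl, 0.28 and 0.43 for Ddx4 and 0.09 and 0.74 for Tex101. The cause of the other differences was not tested. Signal over background limits Sycp1 in testis and every member outside it.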

Other observations

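The genes whose testis values across the 8 arrays lay closest to the mean of the 6 standardized members were Luc7l2 (r = 0.941), Sgcb (r = 0.927), Odc1 (r = 0.911), Ddx20 (r = 0.905) and 4930524B15Rik (r = 0.899), out of 8495 genes above background on all 8. The group means differ little there, so these values describe array-to-array variation, and 4 of the 5 genes were above background on 8 of 8 liver arrays. In spleen the closest of 11096 genes to the mean of 5 members were Heatr9 (r = 0.995), Timm8a2 (r = 0.994), Tex13a (r = 0.990), Gm5935 (r = 0.987) and Hmgb4 (r = 0.987). All 5 were brighter in vehicle testis than in vehicle spleen, with mean signals of 641.8 and 33.5 for Heatr9, 339.5 and 12.8 for Timm8a2, and 1293 and 85.5 for Hmgb4, a sperm-specific HMG box gene. The spleen values of r rest on the 2 vehicle arrays standing apart from the 6 CBL0137 arrays, and each list was picked as the highest of all genes.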
